A study of Mus musculus with 6 samples.

Results

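The 50 genes described here are very long genes that neurons express. They were taken from a fixed list of symbols that was chosen with earlier results of these data known. Each was found in the deposited table of 55416 genes. The table held 51 rows for the 50 symbols, because Nrg1 has a second, very short row on chromosome 8 at 32408601 to 32408786 that held 0 counts in every library and was left out. Their spans, End minus Start in GRCm39, ran from 520 kb for the guidance receptor gene Robo2 to 2271 kb for the phosphatase gene Ptprd.

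The study asked which RNAs persist in the mouse hippocampus from the first days of life. Pups received ethynyluridine (EU), an alkyne-bearing uridine analogue that cells build into new RNA, at 50 mg/kg under the skin once daily on postnatal days 3 to 5, or the same volume of phosphate-buffered saline (PBS). The hippocampus was dissected on postnatal day 36, and RNA from both treatments was biotinylated by click chemistry, captured on streptavidin beads and made into total RNA libraries. The PBS capture gives the RNA that binds without EU. There were 3 EU and 3 PBS libraries, and the labels give neither strain nor genotype nor whether a library came from 1 animal, so the spread that p-values rest on may be technical.

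Very long genes consist almost wholly of introns. RNA polymerase needs many hours to cross them, so their output depends on topoisomerase and elongation factors, and several lie at common fragile sites of the genome. In brain they encode adhesion molecules, guidance receptors, channels and scaffolds that wire and maintain synapses.

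Libraries held 39886723 to 58301239 counts. The library least like the others was PBS replicate 2. Its correlations with them over log2 CPM of tested genes averaged 0.977, against 0.987 to 0.990 for the rest. Defining markers of hippocampal principal neurons, 14 genes such as the dentate factor Prox1 and the CA1 gene Wfs1, were present in every library and none was at 0. Markers of interneurons, oligodendrocytes and their precursors, astrocytes, microglia, endothelium, neocortex, thalamus and choroid plexus were also present, and none was at 0 in any library. In such bulk samples a lower level can come from fewer cells of a type or from less RNA per cell, and these cannot be told apart. Whether the 50 genes came from neurons alone cannot be checked in such samples.

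The 50 genes differed from other genes far more in span than in transcript length. Their median span was 1137 kb, against 25.4 kb over 14791 tested protein-coding genes, and 37 spanned over 1000 kb. The span of 5 exceeded 2000 kb: Ptprd, the muscular dystrophy gene Dmd, the axonal adhesion gene Cntnap2, the limbic adhesion gene Lsamp and the lipoprotein receptor gene Lrp1b. Of the 10 longest protein-coding rows in the table, 7 were in the set, and of the 50 longest, 33. The median longest transcript was 6263 nt, against 3458 nt over tested protein-coding genes. At the median the span was 199 times the transcript length, against 7.62 times for tested protein-coding genes. Within the set, transcript length and span were close to unrelated across genes (Spearman rho 0.04, Pearson r 0.01, n = 50, on log10 lengths). The most extreme was Fhit, a nucleotide hydrolase gene at a fragile site, whose 1612 kb hold a longest transcript of 1094 nt, a ratio of 1473. The least extreme was Ryr2, a ryanodine receptor gene of 554 kb with a transcript of 16814 nt and 105 exons, a ratio of 32.9. Transcript lengths came from the earlier build's annotation by gene identifier, and the isoform used in hippocampus was not measured.

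Spans this long shelter other genes. In 49 of the 50 spans the table had at least 1 further row, 310 in all, of which 199 held counts. For 43 genes those rows summed to less than 10% of the gene's own counts. For 2 genes they summed to more. Ctnna3, an alpha-catenin gene, held 924 counts over the 6 libraries, while Lrrtm3, a synaptic adhesion gene inside it on the opposite strand, held 6241. Prkg1, the cGMP-dependent kinase gene, held 5684 counts and the nested polyadenylation factor gene Cstf2t held 24397. Ctnna2 held 25921 counts beside 22932 for the nested Lrrtm1, and Macrod2, an ADP-ribosylhydrolase gene, held 10838 beside 10714 for the nested adhesion gene Flrt3. All 4 nested genes lie on the strand opposite their host. How the counting treated strand is not given in the sources used here. Reads of Ctnna2, Ctnna3, Macrod2 and Prkg1 therefore cannot be assigned with certainty.

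Levels were compared between genes as CPM (counts scaled to library size, with TMM factors that align most genes between libraries) per kb of the longest transcript, averaged over the 6 libraries. All 50 genes were detected in every library, with the lowest count, 11, for Fhit in PBS replicate 2 and the highest, 28541, for Ryr2 in PBS replicate 3. On this scale 34 of the 50 lay above the median of tested protein-coding genes (5.29 CPM per kb), and the median of the set was 10.3 CPM per kb. The highest was Rbfox1, a neuronal splicing regulator, at 101 CPM per kb (98.0th percentile of tested protein-coding genes). The adhesion genes Lsamp (51.9), Opcml (48.0), Cadm2 (38.8) and Ntm (35.2), the postsynaptic scaffold gene Anks1b (47.4) and the protocadherin gene Pcdh9 (32.7) followed, all in CPM per kb. These 7 were in the top 10%. Whether reads in introns were counted is not given in the sources used here. If they were, levels per kb of transcript and their percentiles cannot be compared between genes. The lowest was Sgcz, a sarcoglycan gene, at 0.322 CPM per kb, and Ctnna3, Il1rapl2, Sgcd and Fhit had 0.894, 0.955, 1.02 and 1.15 CPM per kb. Level and span were close to unrelated within the set. Spearman's rho between log2 CPM per kb and span was -0.11 across the 50 genes (Pearson r -0.06 with log10 span), and it lay between -0.13 and -0.09 in each library taken alone. The points share libraries and are not independent replicates.

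No gene of the set passed the test between EU and PBS. In edgeR's quasi-likelihood test with Benjamini-Hochberg adjustment over all 18511 tested genes, 0 of 50 passed at 0.05, and the smallest adjusted p in the set was 0.299, for Unc5d. Over all tested genes 0 passed (0%). Of the 50, 9 (18.0%) had an unadjusted p under 0.05, where 7.88% of all tested genes reached it. Of these 6 had higher values in EU (3.84% of all tested genes) and 3 lower values (4.05%). EU and PBS had no overlap in CPM for 11 genes (15.7% of all tested genes), 7 of them higher in EU (8.52% of all tested genes) and 4 lower (7.18%). With libraries scaled by their totals only, 9 had no overlap, 7 higher and 2 lower. The share of all tested genes is not given for that scaling. Under it the median log2 ratio over all tested genes was 0.03, against 0.01 in the main fit. Of the 50, 28 had a log2 ratio above 0, against 52.2% of all tested genes, and the median log2 ratio was 0.02 against 0.01 over all tested genes. DESeq2 called 4 of the 46 members to which it gave an adjusted p (2.46% of 11692 genes). These were Unc5d, Ntm and Ptprd as higher (1.11%) and Robo1 as lower (1.35%). The limma voom fit called 0 of 50 (0.0648% of all tested genes). In that fit 10 had an unadjusted p under 0.05, beside 8.14% of all tested genes. edgeR without a filter on low counts called Unc5d and Ntm (0.797% of 31108 genes). Without PBS replicate 2, edgeR called 0 of the 50 (0.103% of 19409 genes). Without EU replicate 3 the unadjusted p was under 0.05 for 3 genes with higher and 3 with lower values, beside 4.7% of all tested genes in that fit. Without PBS replicate 1 these were 5 and 6, beside 10.1%. Libraries were scaled to one another and spike-in rows were empty, so a capture that yielded more of every RNA with EU would not be seen here.

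**Figure D1:**
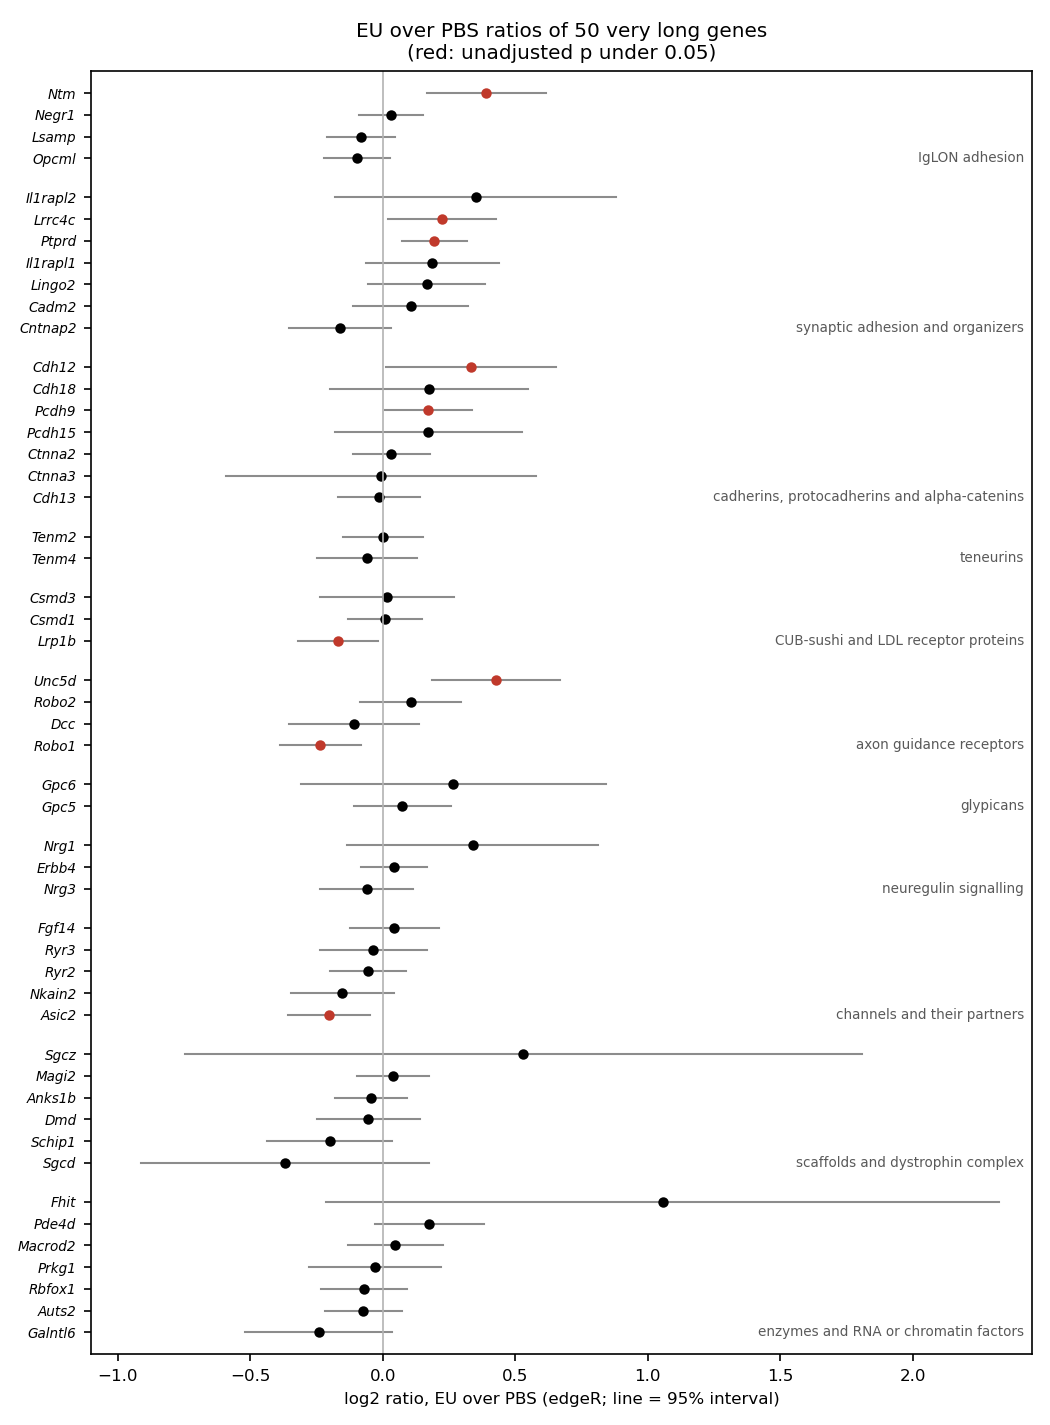
log2 ratio of EU over PBS (x axis) for the 50 genes, grouped by role, with 95% intervals from edgeR that are not adjusted for the number of genes. For 40 of the 50 the whole interval lies within 1.5-fold of equality, the 9 red points have an unadjusted p under 0.05, and Fhit and Sgcz have the widest intervals.

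The intervals show what sizes of difference the data leave room for. For 40 genes the unadjusted 95% interval of the ratio lay within 1.5-fold of equality in both directions. The upper bound went beyond 1.5-fold for 8 genes. It went beyond 2-fold for 2 genes with few counts, Fhit and Sgcz. Fhit stood at 1.82, 1.77 and 1.496 CPM in EU replicates 1, 2 and 3 and at 0.873, 0.255 and 1.30 CPM in PBS replicates 1, 2 and 3. The groups did not overlap, but PBS replicate 2 rested on 11 counts. Its log2 ratio was 1.06 (SE 0.567, 95% interval -0.21 to 2.33, edgeR adjusted p = 0.718).

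The IgLON genes encode small cell surface proteins with 3 immunoglobulin domains, held by a lipid anchor, that bind each other across membranes and shape neurite growth. Lsamp stood at 460, 419 and 453 CPM in EU replicates 1, 2 and 3 and at 444, 494 and 471 CPM in PBS (log2 ratio -0.08, SE 0.057, edgeR adjusted p = 0.781). Opcml stood at 313, 299.6 and 317 CPM in EU and 312, 331 and 351 CPM in PBS (-0.10, SE 0.056, edgeR adjusted p = 0.738). For both the groups overlapped. Negr1 stood at 147, 147 and 144 CPM in EU and 138, 141 and 149 CPM in PBS, also overlapping, with a log2 ratio of 0.03 (SE 0.054). Ntm differed from its relatives in the size of its ratio. It stood at 109, 134 and 137 CPM in EU replicates 1, 2 and 3 and at 93.3, 88.6 and 107 CPM in PBS. Every EU value was above every PBS value, by a narrow margin between EU replicate 1 and PBS replicate 3. The gene (ENSMUSG00000059974, minus strand) occupies chromosome 9 from 28906046 to 29874437. Its log2 ratio was 0.39 (SE 0.101, 95% interval 0.17 to 0.62, edgeR adjusted p = 0.308, and 0.0135 in DESeq2).

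Among the other synaptic adhesion proteins and organizers, 6 of 7 had a ratio above 1 and 2 reached an unadjusted p under 0.05. Ptprd encodes a presynaptic receptor phosphatase that binds organizers such as Il1rapl1. The gene (ENSMUSG00000028399, minus strand) occupies chromosome 4 from 75859475 to 78130198. It stood at 244, 248 and 264 CPM in EU replicates 1, 2 and 3 and at 211, 223 and 227 CPM in PBS. The groups did not overlap, and the log2 ratio was 0.19 (SE 0.055, 95% interval 0.07 to 0.32, edgeR adjusted p = 0.344, and 0.0427 in DESeq2). Lrrc4c, the netrin-G1 ligand of the postsynaptic side, stood at 94.99, 103 and 107 CPM in EU and 82.55, 79.5 and 99.6 CPM in PBS (0.22, SE 0.091, edgeR adjusted p = 0.574). PBS replicate 3 lay above EU replicate 1. Cntnap2, which clusters potassium channels beside the node of Ranvier, was the member of this group with a ratio below 1. It stood at 132, 133 and 144 CPM in EU and 131, 164 and 161 CPM in PBS (-0.16, SE 0.086, edgeR adjusted p = 0.718), and PBS replicate 1 was the lowest of the 6. Without PBS replicate 1 the log2 ratio was -0.26, and without PBS replicate 2 it was -0.11. Cadm2, a synaptic immunoglobulin adhesion protein, stood at 351, 346 and 457 CPM in EU and 342, 365 and 366 CPM in PBS (0.11, SE 0.097, and -0.04 without EU replicate 3). EU replicate 3 was the highest by far. Lingo2, Il1rapl1 and Il1rapl2 had log2 ratios of 0.17, 0.19 and 0.35.

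**Figure D2:**
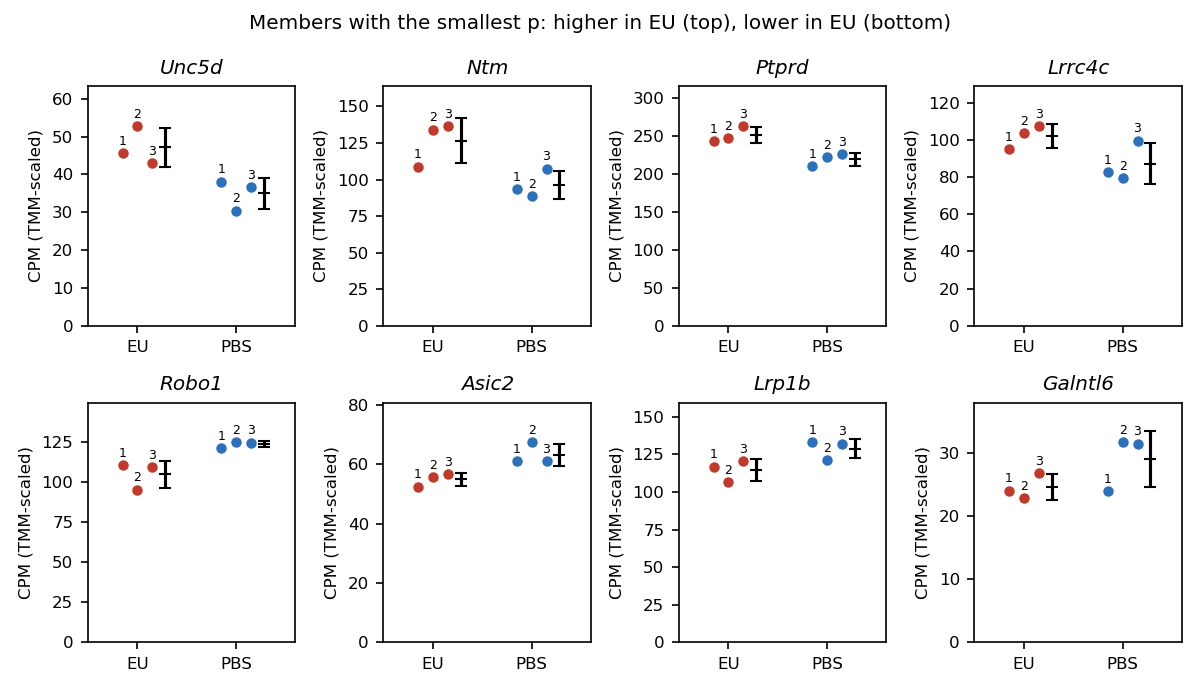
TMM-scaled CPM (y axis, from 0) of the 4 genes with the smallest p in each direction. Points are libraries with their replicate number, and bars are the mean and SD of 3. EU and PBS do not overlap for Unc5d, Ntm, Ptprd, Robo1, Asic2 and Lrp1b, and overlap for Lrrc4c and Galntl6. The choice by p favours groups that stand apart.

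Axon guidance receptors gave the smallest p in both directions. Unc5d, a netrin and FLRT receptor known from migrating cortical neurons, stood at 45.7, 52.8 and 42.9 CPM in EU replicates 1, 2 and 3 and at 38.1, 30.4 and 36.6 CPM in PBS. All EU values were above all PBS values. Its log2 ratio was 0.43 (SE 0.108, 95% interval 0.19 to 0.67, edgeR adjusted p = 0.299, and 0.0222 in DESeq2). The gene (ENSMUSG00000063626, minus strand) occupies chromosome 8 from 29136745 to 29709664. Robo1, a receptor for the repellent Slit proteins, stood at 110.3, 95.2 and 109 CPM in EU and at 121, 125 and 125 CPM in PBS. The gene (ENSMUSG00000022883, plus strand) occupies chromosome 16 from 72105194 to 72842983. All EU values were below all PBS values, with a log2 ratio of -0.24 (SE 0.068, 95% interval -0.39 to -0.08, edgeR adjusted p = 0.372, and 0.0497 in DESeq2). Robo2, its close relative, stood at 111, 115 and 137 CPM in EU and 106, 113 and 119 CPM in PBS. The groups overlapped, EU replicate 3 was the highest, and the log2 ratio was 0.11 (SE 0.086). The netrin receptor gene Dcc had a log2 ratio of -0.11 (SE 0.109).

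Of the cadherins, protocadherins and alpha-catenins, 5 of 7 had a ratio above 1, and 7 of 7 when libraries were scaled by their totals only. The 2 that turned, Cdh13 and Ctnna3, were near 0. That scaling also moved the median log2 ratio over all tested genes from 0.01 to 0.03. Pcdh9, a protocadherin of the non-clustered kind, stood at 211, 214 and 253 CPM in EU replicates 1, 2 and 3 and at 193, 205 and 204 CPM in PBS. The groups did not overlap (log2 ratio 0.17, SE 0.073, edgeR adjusted p = 0.604), and without EU replicate 3 the log2 ratio was 0.08. Cdh12, a type II cadherin, had 29.5, 33.3 and 36.8 CPM in EU and 32.6, 23.2 and 23.2 CPM in PBS (0.33, SE 0.144, edgeR adjusted p = 0.611). PBS replicate 1 lay within the EU range, and without it the log2 ratio was 0.51. Cdh18 and Pcdh15 had log2 ratios of 0.17 each, while Ctnna2 (0.03), Cdh13 (-0.01) and Ctnna3 (-0.007) had log2 ratios within 0.05 of 0. Both teneurins, large proteins that bind latrophilins across the synapse, had ratios near 1. Tenm2 stood at 303, 291 and 302 CPM in EU and 272, 328 and 294 CPM in PBS (log2 ratio 0.002, SE 0.068, and -0.002 with DESeq2's scaling). PBS replicates 1 and 2 were its lowest and highest values. Tenm4 stood at 274, 264 and 215 CPM in EU and 261, 269 and 253 CPM in PBS (-0.06, SE 0.084, and 0.03 without EU replicate 3), and EU replicate 3 was the lowest.

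Of the large CUB-sushi and LDL receptor proteins, Lrp1b had lower values in EU. It stood at 117, 106 and 121 CPM in EU replicates 1, 2 and 3 and at 133, 121 and 132 CPM in PBS. The groups did not overlap, though EU replicate 3 and PBS replicate 2 were nearly equal (log2 ratio -0.17, SE 0.068, edgeR adjusted p = 0.566). Csmd1, which restrains complement, stood at 131, 127 and 144 CPM in EU and 132, 132 and 136 CPM in PBS. Its groups overlapped (log2 ratio 0.009, SE 0.062, and -0.05 without EU replicate 3), and Csmd3 had a log2 ratio of 0.02. The glypicans, heparan sulfate proteoglycans anchored on the cell surface, were represented by Gpc5 and Gpc6. Gpc5 stood at 28.8, 30.3 and 31.2 CPM in EU and 27.3, 29.4 and 29.0 CPM in PBS (log2 ratio 0.07, SE 0.082). Gpc6 stood at 11.1, 12.1 and 10.1 CPM in EU and 13.1, 5.62 and 8.93 CPM in PBS (0.27, SE 0.257). Both overlapped, and for Gpc6 the PBS libraries held the highest and the lowest value. Its log2 ratio was 0.60 without PBS replicate 1 and 0.01 without PBS replicate 2.

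In neuregulin signalling, the ligand genes Nrg1 and Nrg3 and the receptor gene Erbb4 had log2 ratios of 0.34, -0.06 and 0.04. Nrg1 stood at 9.57, 10.6 and 12.6 CPM in EU replicates 1, 2 and 3 and at 6.11, 10.9 and 8.865 CPM in PBS (SE 0.212, edgeR adjusted p = 0.759), and the groups overlapped. Its log2 ratio was 0.14 without PBS replicate 1, 0.54 without PBS replicate 2 and 0.22 without EU replicate 3. Nrg3 stood at 53.7, 54.4 and 62.9 CPM in EU and 56.9, 60.7 and 60.7 CPM in PBS (SE 0.078), with overlap as well. Among channels and their partners 1 of 5 had a ratio above 1. Asic2, an acid-sensing sodium channel subunit, had 52.5, 55.8 and 56.7 CPM in EU replicates 1, 2 and 3 and 61.2, 67.4 and 61.1 CPM in PBS. All EU values were lower than all PBS values (log2 ratio -0.20, SE 0.070, edgeR adjusted p = 0.475). Nkain2, a partner of the sodium pump, stood at 34.7, 38.2 and 40.1 CPM in EU and 41.7, 45.1 and 38.9 CPM in PBS. The groups overlapped through EU replicate 3 and PBS replicate 3 (-0.15, SE 0.087, and -0.10 without PBS replicate 2). Ryr2, which releases calcium from the endoplasmic reticulum and had the highest CPM of the set, stood at 488.5, 441 and 511 CPM in EU and 528, 474.5 and 495 CPM in PBS (-0.06, SE 0.064, edgeR adjusted p = 0.860). Ryr3 and Fgf14, a sodium channel modulator, had -0.04 and 0.04.

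The scaffolds and dystrophin complex and the enzymes and nuclear factors held no gene with an unadjusted p under 0.05. Dmd stood at 90.6, 81.6 and 88.0 CPM in EU and 80.0, 101 and 89.8 CPM in PBS (log2 ratio -0.06, SE 0.087, and 0.03 without PBS replicate 2). Anks1b, a scaffold of the postsynaptic density, stood at 349.6, 353 and 355 CPM in EU and 338, 396 and 357 CPM in PBS (-0.04, SE 0.061, and 0.02 without PBS replicate 2). For both genes PBS replicates 1 and 2 were the lowest and the highest value. Magi2, another synaptic scaffold gene, had a log2 ratio of 0.04. Schip1, a protein of the axon initial segment, stood at 17.5, 20.8 and 19.8 CPM in EU and 22.6, 20.8 and 23.2 CPM in PBS. It was lower in every EU library than in every PBS library, but EU replicate 2 and PBS replicate 2 differed only beyond the digits printed (log2 ratio -0.20, SE 0.105, edgeR adjusted p = 0.718). Of the sarcoglycans, membrane partners of dystrophin, Sgcd stood at 3.82, 4.19 and 3.85 CPM in EU and 3.73, 6.85 and 4.74 CPM in PBS (-0.37, SE 0.243) and Sgcz had 0.53 (SE 0.571). The log2 ratio of Sgcd was -0.10 without PBS replicate 2, its highest library, and -0.56 without PBS replicate 1. Of the enzymes, Galntl6, a putative glycosyltransferase, stood at 24.1, 22.9 and 26.9 CPM in EU and 24.0, 31.7 and 31.5 CPM in PBS (-0.24, SE 0.123, edgeR adjusted p = 0.702). PBS replicate 1 lay within the EU range, and without it the log2 ratio was -0.37. Pde4d, a cAMP phosphodiesterase, stood at 57.5, 59.2 and 72.7 CPM in EU and 54.3, 56.2 and 57.1 CPM in PBS (0.18, SE 0.092, edgeR adjusted p = 0.715, and 0.06 without EU replicate 3). The groups did not overlap, and EU replicate 3 was the highest. Rbfox1, Macrod2, Prkg1 and Auts2, a chromatin regulator, had log2 ratios of -0.07, 0.05, -0.03 and -0.07.

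The ratio of 2 related genes inside a library does not depend on how libraries are scaled. It was taken for 12 pairs of relatives in the set, and it did not overlap between EU and PBS for 3 of them. Over all pairs of tested protein-coding genes at least as long as Robo2, 28.4% of pairs did not overlap, so 3 of 12 is near the background. Ntm to Opcml was 0.347, 0.448 and 0.431 in EU replicates 1, 2 and 3 and 0.299, 0.267 and 0.306 in PBS, so Ntm made up more of the pair in every EU library. These genes are neighbours on chromosome 9, on opposite strands and 69.3 kb apart. Robo1 to Robo2 was 0.992, 0.830 and 0.796 in EU and 1.14, 1.11 and 1.05 in PBS, so Robo2 had the higher CPM in every EU library and Robo1 in every PBS library. They lie 846 kb apart on chromosome 16, also on opposite strands. Negr1 to Lsamp was 0.318 to 0.351 in EU and 0.285 to 0.316 in PBS, groups that nearly touched. The other 9 ratios overlapped. Among them were 2 further pairs of neighbours, Gpc5 to Gpc6, 400 kb apart, and Cdh12 to Cdh18, 959 kb apart. Ryr2 to Ryr3 stayed at 7.37 to 8.35 in all 6 libraries and Csmd1 to Csmd3 at 2.48 to 3.17. With 3 against 3 libraries the exact two-sided permutation test cannot go below 0.1, and no p is given for these pairs.

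**Figure D3:**
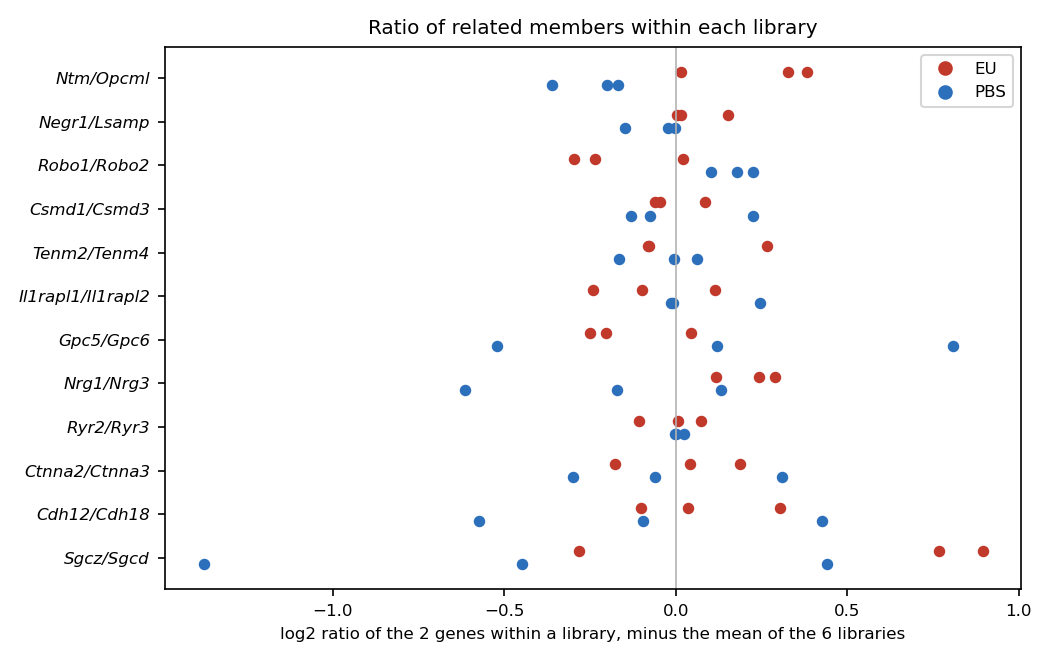
log2 ratio of 2 related genes within each library, minus its mean over the 6 libraries (x axis), for 12 pairs (y axis). Red points are EU and blue points PBS libraries. The groups separate for Ntm/Opcml, Negr1/Lsamp and Robo1/Robo2.

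Of the 4 pairs under 1000 kb apart, 2 have their promoters shown, Ntm with Opcml and Robo1 with Robo2. These promoters were chosen because the members of each pair had log2 ratios of opposite sign, that of Robo2 being -0.0009 without EU replicate 3. Each runs from 250 bases before to 50 after a RefSeq start in GRCm38.p6, 5′ to 3′ on the gene's strand, with CG dinucleotides in capitals. RefSeq's table lists 2 starts for Ntm, 1 for Opcml, 1 for Robo1 and 3 for Robo2, and the one nearest the 5′ end of the GENCODE M21 gene, also in GRCm38, is printed. They lie at chr9:29413403-29413702 (minus strand) for Ntm, chr9:27791049-27791348 (plus) for Opcml, chr16:72662899-72663198 (plus) for Robo1 and chr16:74411776-74412075 (minus) for Robo2. The start of Robo2 was that 5′ end itself, and the start of Opcml lay 0.524 kb inside the gene. Those of Ntm and Robo1 lay 549.7 kb and 355 kb inside it, so the promoters at the outer ends of these 2 genes are not shown. The other 2 starts of Robo2 lay 681 kb and 1035 kb upstream of its annotated span, which is as long in GENCODE M21 as in the count table. These coordinates are not of the build of the counts, and which start is used in these samples was not measured.
Ntm: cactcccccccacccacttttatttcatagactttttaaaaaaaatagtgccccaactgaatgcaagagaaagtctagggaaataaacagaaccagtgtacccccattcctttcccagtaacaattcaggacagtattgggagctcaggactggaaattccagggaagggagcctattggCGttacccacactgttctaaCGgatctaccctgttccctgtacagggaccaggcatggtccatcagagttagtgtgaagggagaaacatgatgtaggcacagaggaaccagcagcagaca
Opcml: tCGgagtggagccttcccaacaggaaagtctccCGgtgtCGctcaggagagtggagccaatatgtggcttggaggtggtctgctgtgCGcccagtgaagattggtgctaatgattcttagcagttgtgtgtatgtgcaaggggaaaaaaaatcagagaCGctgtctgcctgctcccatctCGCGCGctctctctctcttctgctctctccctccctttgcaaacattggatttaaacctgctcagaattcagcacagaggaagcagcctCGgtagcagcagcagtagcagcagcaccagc
Robo1: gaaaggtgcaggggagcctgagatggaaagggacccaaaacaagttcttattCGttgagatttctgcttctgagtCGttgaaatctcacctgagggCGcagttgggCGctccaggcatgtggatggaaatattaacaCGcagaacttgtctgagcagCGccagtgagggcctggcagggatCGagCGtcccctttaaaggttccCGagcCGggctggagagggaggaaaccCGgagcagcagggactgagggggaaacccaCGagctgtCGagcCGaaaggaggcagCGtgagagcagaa
Robo2: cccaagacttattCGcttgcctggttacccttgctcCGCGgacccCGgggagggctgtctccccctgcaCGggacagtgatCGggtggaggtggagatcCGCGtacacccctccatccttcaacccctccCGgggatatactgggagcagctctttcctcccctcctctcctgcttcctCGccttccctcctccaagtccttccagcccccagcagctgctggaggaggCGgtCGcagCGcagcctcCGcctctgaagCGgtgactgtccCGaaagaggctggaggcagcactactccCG
The Ntm promoter held 2 CG dinucleotides and that of Opcml 9, and those of Robo1 and Robo2 held 15 and 17. The table had a promoter for 38 of the 50 genes, with a median of 12 CG dinucleotides at the first listed start, against 7 over 27018 promoters of the same length. The TATA box TATAAA, searched on both strands, was in 4 of the 38 (10.5%) and in 14.2% of all promoters, and the GC box GGGCGG in 14 of the 38 (36.8%) and in 35.9% of all. None of the 4 promoters printed held either motif in this window.

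The EU over PBS ratio showed no trend with gene span. Across the 50 genes, Spearman's rho between log2 ratio and span was 0.03 (Pearson r 0.04 with log10 span), and across 14791 tested protein-coding genes rho was 0.02. The 17 longest genes of the set, 1276 kb and more, had a median log2 ratio of 0.05, the 16 in the middle -0.05 and the 17 shortest 0.04. Across all protein-coding genes, the median log2 ratio was 0.0004 for spans up to 10 kb, 0.01 for 10 to 50 kb, 0.01 for 50 to 200 kb, -0.002 for 200 to 500 kb and 0.02 for the 213 genes over 500 kb. The share of genes with an unadjusted p under 0.05 varied with span. It was 8.21% up to 10 kb, 7.50% from 10 to 50 kb, 9.96% from 50 to 200 kb, 17.4% from 200 to 500 kb and 22.5% over 500 kb. Longer classes also had higher levels, with a median of 10.1 CPM in the shortest class and 53.2 CPM in the longest. Among genes with a mean of at least 10 CPM the share was 11.7%, 10.2%, 12.2%, 21.2% and 24.9% in the same order. Levels still differed there, with a median of 29.7 CPM in the shortest class and 65.0 CPM in the longest. The 18.0% of the 50 genes was below the 23.0% of the other 148 tested protein-coding genes that span at least as much as Robo2, of which 19 had higher and 15 lower values in EU. No test of these differences was made, since genes are not independent replicates.

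**Figure D4:**
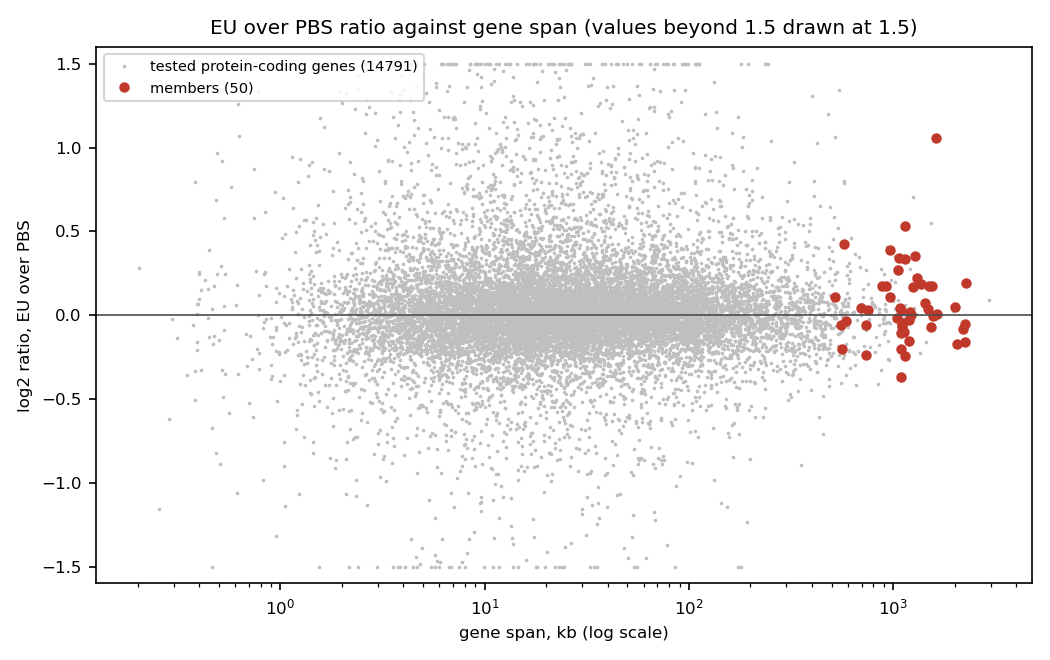
log2 ratio of EU over PBS (y axis) against gene span in kb (x axis, log scale) for 14791 tested protein-coding genes in grey and the 50 very long genes in red. The 138 grey points beyond 1.5 are drawn at the edge, and the red points lie on both sides of 0 with little slope against span.

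Together the 50 genes took nearly the same share of counts in every library. It was 0.572%, 0.558% and 0.609% in EU replicates 1, 2 and 3 and 0.560%, 0.572% and 0.578% in PBS. With overlap, EU averaged 0.580% ± 0.0266 and PBS 0.570% ± 0.00908 (SD, 3 libraries each). Single libraries set the extremes. EU replicate 3 held the highest of the 6 values for 20 genes and the lowest for 1, and PBS replicate 1 held the lowest for 20 and the highest for 4. The median log2 CPM of the set, relative to the 6 libraries, reached 0.07 for EU replicate 3 and was -0.08 for PBS replicate 1, against -0.02 to 0.02 in the other 4. In the 148 other long genes these medians were 0.05 and -0.04. Without EU replicate 3 the median log2 ratio of the set was -0.01 in place of 0.02, and 8 genes turned sign.

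**Figure D5:**
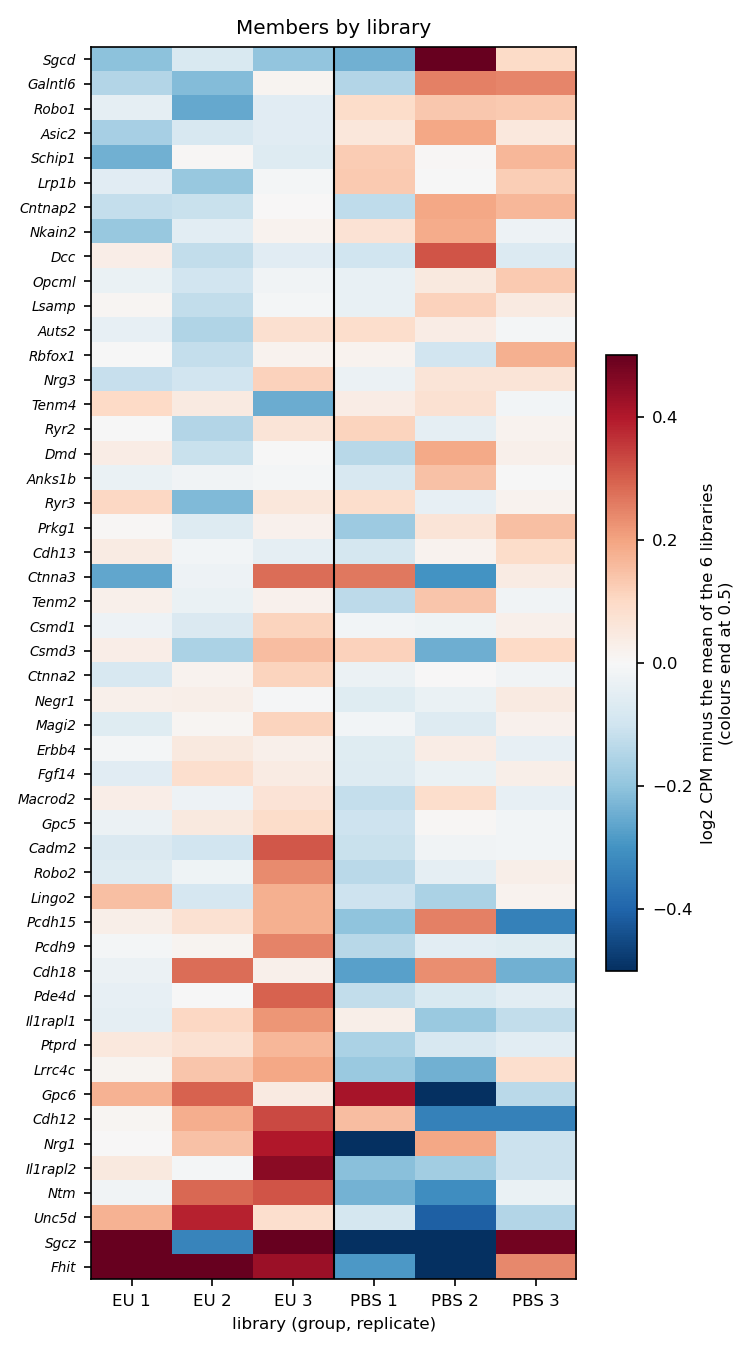
log2 CPM of each gene minus its mean over the 6 libraries (colour), with genes ordered by log2 ratio (y axis) and libraries on the x axis. Most genes are pale, EU replicate 3 is the reddest column, PBS replicate 1 the bluest, and strong colours belong mainly to genes with few counts such as Fhit and Sgcz.

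Among region markers 0 passed in edgeR, while DESeq2 called 5 of 14 hippocampal markers lower (1.35% of all genes) and 5 of 8 neocortex markers higher (1.11%). The limma voom fit called 1 hippocampal marker (0.0648% of all tested genes). The summed level of the 14 hippocampal principal neuron markers was 2768 to 3113 CPM in EU and 3439 to 3582 CPM in PBS, and 13 of 14 had a ratio below 1, 9 of them with an unadjusted p under 0.05 (4.05% of all tested genes were lower in this way). Wfs1 had a ratio above 1, also with an unadjusted p under 0.05. The summed level of 8 neocortex markers was 337, 420.2 and 441 CPM in EU replicates 1, 2 and 3 and 265, 342 and 293 CPM in PBS, and 7 of 8 had a ratio above 1 (median log2 ratio 0.44), 6 with an unadjusted p under 0.05 (3.84% of all tested genes were higher in this way). Of the 6 genes of the set with higher values in EU at an unadjusted p under 0.05, Unc5d was highest in EU replicate 2. Ntm, Ptprd, Lrrc4c, Pcdh9 and Cdh12, like the neocortex sum, rose in order from EU replicate 1 to 2 to 3. In PBS the neocortex sum was highest in replicate 2, and so was Pcdh9. Ntm, Unc5d and Lrrc4c were lowest in that library. Ptprd lay between, and Cdh12 was nearly equal in PBS replicates 2 and 3. The sums of interneuron (598 to 719 CPM), oligodendrocyte (6054 to 6430 CPM), oligodendrocyte precursor (358 to 399.9 CPM), astrocyte (1370 to 1532 CPM), microglia (242 to 278 CPM), endothelial (87.4 to 103 CPM) and thalamus markers (73.3 to 88.6 CPM) are given over all 6 libraries. Choroid plexus markers ranged from 754 CPM in EU replicate 3 to 5348 CPM in PBS replicate 1. The marker lists were chosen with earlier results of these data known, so their counts beside the shares of all tested genes are no test. The part of these markers in the ratios of the 50 genes was not tested.

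Long neuronal genes outside the set were read in the same fit. Of 39 that were tested, 24 had a ratio above 1 and 0 passed in edgeR. DESeq2 called 3 higher (1.11% of all genes) and 0 lower (1.35%). In edgeR 4 with higher and 3 with lower values reached an unadjusted p under 0.05 (17.9%, against 7.88% of all tested genes). Of tested protein-coding genes that span over 500 kb, 22.5% reached it. This list was also chosen with earlier results of these data known. The median log2 ratio was 0.03. Dpp10, a potassium channel partner that spans 1525 kb, had means of 59.3 CPM with EU and 40.4 with PBS (log2 ratio 0.55, SE 0.097, edgeR adjusted p = 0.125). The teneurin gene Tenm3 had 0.27 (SE 0.064, edgeR adjusted p = 0.278) and the contactin gene Cntn5 had 0.70 (SE 0.174, edgeR adjusted p = 0.289). Of 20 genes for factors that act on transcription or processing of long genes, 16 had a ratio above 1 and 0 passed in edgeR. DESeq2 called 1 higher (1.11% of all genes). In edgeR 1 reached an unadjusted p under 0.05 (5%, against 7.88% of all tested genes). That was Tardbp, which encodes the RNA-binding protein TDP-43 (log2 ratio 0.28, SE 0.068, edgeR adjusted p = 0.278). The elongation kinase gene Cdk12 had 0.13 (SE 0.074).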

How the data were processed

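Counts per gene were deposited by the authors for 6 libraries, as raw counts. The submitters' processing notes name GRCm39 and the tools featureCounts 2.0.1, STAR 2.7.10b and bcl2fastq 2.20.0. Which annotation, feature and strand were counted is not given in the sources used here, which matters for genes nested in long introns. ERCC rows (92, all at 0 counts) were left out, and the table held 0 columns of other samples.

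Titles gave the groups. The test was edgeR 4.0.16 under R 4.3.3 (filterByExpr, TMM, quasi-likelihood test, two-sided, treatment only, Benjamini-Hochberg over 18511 genes at 0.05), and CPM were TMM-scaled. Standard errors are the absolute log2 ratio over the square root of F. Transcript lengths, exons and base content are those of the longest GENCODE M21 transcript by identifier (99.9% of tested protein-coding genes, 50 of 50 members), and its gene ends were used only to choose promoter starts in its own build. Log2 levels per kb used a pseudocount of 0.1, and deviations of log2 CPM likewise. Alternatives were other scalings, no or a stricter filter (60 counts in all, and 1 CPM or more in 3 libraries), limma voom 3.58.1, DESeq2 1.42.0, a replicate block and leaving out each library. No molecular identifiers are named in the labels, so PCR copies may count more than once, and a count of 11 limits precision more than one of 28541.

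On simulated data with 200 changed genes among 18511, the edgeR test of EU against PBS found 29 of 67 genes at 1.5-fold, 43 of 67 at 2-fold and 54 of 66 at 4-fold, and made 18 false calls. The members, lists and pairs were chosen with earlier results of these data known. Genes named with full values were those with the 4 smallest p in each direction, the 4 highest CPM, the 3 longest and 3 shortest spans, the IgLON genes and the 2 smallest p in each role, and others, such as Fhit, Sgcz and Rbfox1, were added after their values were seen. A gene of the list of transcription regulators is not reported here. Python 3.11.15 and matplotlib 3.10.9 made the figures.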

Additional observations from a re-analysis of the deposited data

How the results depend on the processing

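Over all tested genes edgeR called 0 at 0.05, and 0 also with either other scaling or the stricter filter. No filter gave 248 calls, DESeq2 288 and limma voom 12, and leaving out 1 library gave 0 to 20, with 20 without PBS replicate 2 and 1 without EU replicate 1. Among the 50 genes no filter gave 2 calls, DESeq2 gave 4, and each other setting gave 0. A replicate block in edgeR gave 18 calls over the whole table and 0 among the 50. The labels do not say that a number marks a shared animal or day, and same-numbered libraries deviated together with correlations of 0.145, -0.011 and 0.147, with 2 of 3 EU libraries closest to their own number.

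An unadjusted p under 0.05 was reached by 6 to 12 of the 50 genes over all settings, beside 4.5% to 10.6% of all genes in the same fits. The median log2 ratio of the set ran from -0.01 to 0.04 over leave-one-out fits, and the correlation of ratio with span from -0.01 to 0.07. Of the 50 genes, 17 turned sign in at least 1 of the 13 alternatives, 7 of them among the 30 with full values, many of which were named for a small p. The sign turned for Tenm2 with DESeq2's scaling (-0.00225) and in DESeq2 (-0.00219). With 1 library left out, log2 ratios ran from -0.066 to 0.074 for Tenm2, -0.13 to 0.033 for Tenm4, -0.053 to 0.042 for Csmd1, -0.045 to 0.17 for Cadm2, -0.00087 to 0.16 for Robo2, -0.14 to 0.028 for Dmd and -0.10 to 0.018 for Anks1b. The causes of these turns were not tested.

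Depth limits the genes with few counts, Fhit and Sgcz above all. With 3 libraries a group, the simulated test missed most genes changed 1.5-fold. Its changed genes were drawn from all tested genes, whose median was 10.2 CPM, against 60.2 CPM for the 50. It therefore does not give the power for this set.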

Other observations

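The transcripts of the 50 genes differed in base content from other protein-coding genes. Their longest transcripts had a median of 26.7% uridine and 44.4% GC, against 24.7% and 49.9% over tested protein-coding genes. Across the 50 genes Spearman's rho between log2 ratio and uridine content was 0.23 (Pearson r 0.12), while over 14772 tested protein-coding genes it was 0.01 (r -0.01). In the other 148 long genes it was -0.10 (r -0.07). Ratio and transcript length had rho -0.25 (r -0.39) across the 50 genes, 0.02 over protein-coding genes and 0.07 (r 0.02) in the other 148 long genes. Across the 50 genes ratio and log2 CPM had rho -0.34 (r -0.46), and -0.25 (r -0.20) without Fhit and Sgcz. The rho with log2 CPM was -0.14 (r -0.17) over tested protein-coding genes and -0.10 (r -0.16) in the other 148 long genes. The values for length and base content therefore stand beside a relation with level. Genes share libraries and are not independent replicates, and no p is given.

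The least abundant of the set were Sgcz, Il1rapl2, Ctnna3, Sgcd and Fhit. Il1rapl2, a relative of the synaptic organizer Il1rapl1, stood at 3.36, 3.22 and 4.47 CPM in EU and 2.79, 2.86 and 3.00 CPM in PBS, without overlap (log2 ratio 0.35, SE 0.237, edgeR adjusted p = 0.775). Sgcz stood at 1.32, 0.698 and 1.45 CPM in EU and 0.553, 0.534 and 1.30 CPM in PBS, with overlap through PBS replicate 3.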
